A study of Mus musculus with 5 samples.

Results

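The class 3 and class 4 POU domain genes examined here were Pou3f1, Pou3f2, Pou3f3, Pou4f1, Pou4f2 and Pou4f3, 6 of the 22367 protein-coding genes annotated on the mouse mm9 genome. They were listed by name, and for each gene every CBX2 peak that overlapped the gene body extended by 5 kb on each side was taken. Such peaks numbered 13 of the 871 in the 3 deposited lists analysed here. The lists came from chromatin immunoprecipitation and sequencing (ChIP-Seq) of CBX2, a chromobox subunit of Polycomb Repressive Complex 1 (PRC1), in mouse embryonic fibroblasts (MEFs). All lines derived from a MEF line with a loxP-flanked ("floxed") Eed gene, which encodes a core subunit of Polycomb Repressive Complex 2 (PRC2). Control cells were the parental line, EZHIP cells stably expressed human EZHIP from a lentivirus, and K27M cells stably expressed H3.3 K27M, a histone in which lysine 27 is methionine, also by lentivirus. Each had 1 library and 1 list of broad peaks. The series has 5 CBX2 libraries, and the 2 labelled K27R and EEDnull were not analysed here.

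POU domain proteins are transcription factors that bind DNA through a POU-specific domain joined to a homeodomain. The class 3 and class 4 genes act mainly in neural development and are largely silent in fibroblasts. Pou3f1 (also Oct6) times myelination by Schwann cells. Pou3f2 (Brn2) and Pou3f3 (Brn1) act in cortical and hypothalamic neurons. Pou4f1 (Brn3a) acts in sensory neurons, Pou4f2 (Brn3b) in retinal ganglion cells and Pou4f3 (Brn3c) in the hair cells of the inner ear. Silent developmental genes with CpG islands are typical Polycomb targets. PRC2 places H3K27me3 on such islands, and PRC1 complexes with a CBX subunit can bind that mark. EZHIP and H3.3 K27M both inhibit PRC2, so the comparison asks where CBX2 is found at these genes when PRC2 is inhibited.

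The promoters of the members are shown because the peaks at these genes differ in whether they hold the promoter. RefSeq promoter entries (GRCm38.p6) matched 4 of the 6 members, and each matched 1 position of NCBIM37, the assembly of mm9. No entry was available for Pou3f1, and Pou4f3 was left out before matching. The 250 bases before the RefSeq start are given 5′ to 3′ on the gene's strand, with each CpG in capitals. They lie at chr4:22415514-22415763 (minus strand, Pou3f2), chr1:42752363-42752612 (plus strand, Pou3f3), chr14:104867217-104867466 (minus strand, Pou4f1) and chr8:80960547-80960796 (minus strand, Pou4f2).
Pou3f2: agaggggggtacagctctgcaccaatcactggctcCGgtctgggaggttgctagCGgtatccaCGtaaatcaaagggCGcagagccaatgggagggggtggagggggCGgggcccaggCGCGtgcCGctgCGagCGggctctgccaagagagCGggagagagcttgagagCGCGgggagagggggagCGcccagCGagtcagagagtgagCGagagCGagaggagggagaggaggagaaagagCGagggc
Pou3f3: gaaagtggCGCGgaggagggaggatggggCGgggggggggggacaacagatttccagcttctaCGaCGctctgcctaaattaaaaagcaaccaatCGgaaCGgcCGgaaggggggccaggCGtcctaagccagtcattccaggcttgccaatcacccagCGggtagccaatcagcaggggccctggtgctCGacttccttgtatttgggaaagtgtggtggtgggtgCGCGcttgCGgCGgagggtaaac
Pou4f1: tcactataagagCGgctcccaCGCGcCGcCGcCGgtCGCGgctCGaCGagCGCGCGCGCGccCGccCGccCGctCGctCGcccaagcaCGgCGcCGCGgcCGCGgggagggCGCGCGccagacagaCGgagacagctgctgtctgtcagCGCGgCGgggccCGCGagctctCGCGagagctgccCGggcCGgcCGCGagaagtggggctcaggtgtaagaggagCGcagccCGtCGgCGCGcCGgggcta
Pou4f2: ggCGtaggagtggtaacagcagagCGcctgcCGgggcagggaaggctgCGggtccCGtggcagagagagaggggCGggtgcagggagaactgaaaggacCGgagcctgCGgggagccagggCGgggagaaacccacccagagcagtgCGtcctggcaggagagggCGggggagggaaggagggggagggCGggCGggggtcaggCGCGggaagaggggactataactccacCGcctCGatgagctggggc

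The promoters of Pou3f2 and Pou3f3 lay whole inside a CBX2 peak of every list (Control, EZHIP and K27M). That of Pou4f1 lay inside the Control and K27M peaks and outside the EZHIP peak, and that of Pou4f2 lay inside a peak of K27M alone. The Pou4f1 promoter held 47 CpGs in its 250 bases, against 18 in Pou3f2, 17 in Pou4f2 and 15 in Pou3f3. The median over 32851 RefSeq promoters was 6, and 0.250% of them held at least as many CpGs as Pou4f1. As a description of the sequences, CCAAT or its reverse complement ATTGG occurred 3 times in Pou3f3 and 2 times in Pou3f2. It did not occur in Pou4f1 or Pou4f2, and 33.8% of all promoters held it. This motif was searched after the sequences were seen. The octamer bound by POU proteins, ATGCAAAT or ATTTGCAT, occurred in none of the 4 and in 1.60% of all promoters.

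CBX2 peaks were present at 4 of the 6 genes in Control, 3 in EZHIP and 6 in K27M. Among all protein-coding genes, 1.49% had a peak by the same rule in Control, 1.44% in EZHIP and 1.78% in K27M. Taken from GENCODE vM1, the annotated 5′ end was inside a peak for 3 members in Control, 2 in EZHIP and 5 in K27M. Among all genes the shares were 0.903% in Control (95% interval 0.783 to 1.04%), 0.894% in EZHIP (0.775 to 1.03%) and 1.19% in K27M (1.06 to 1.34%). These are exact Clopper-Pearson intervals, which cover counting error only. Each member had either 1 peak or none in a list. The next peak on the same chromosome lay at least 0.794 Mb away, so no count turned on a peak just outside the 5 kb margin. With 1 library per condition there was no replicate error and no test, and the lists carry no read depth. An absent peak therefore shows only that none was called. The K27M list was the longest, with 327 peaks over 4.47 Mb against 289 over 3.27 Mb in Control and 255 over 2.76 Mb in EZHIP. With the 255 widest peaks of each list, 3, 3 and 5 members had a peak in Control, EZHIP and K27M, and the 5′ end was inside a peak for 3, 2 and 5.

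**Figure D1:**
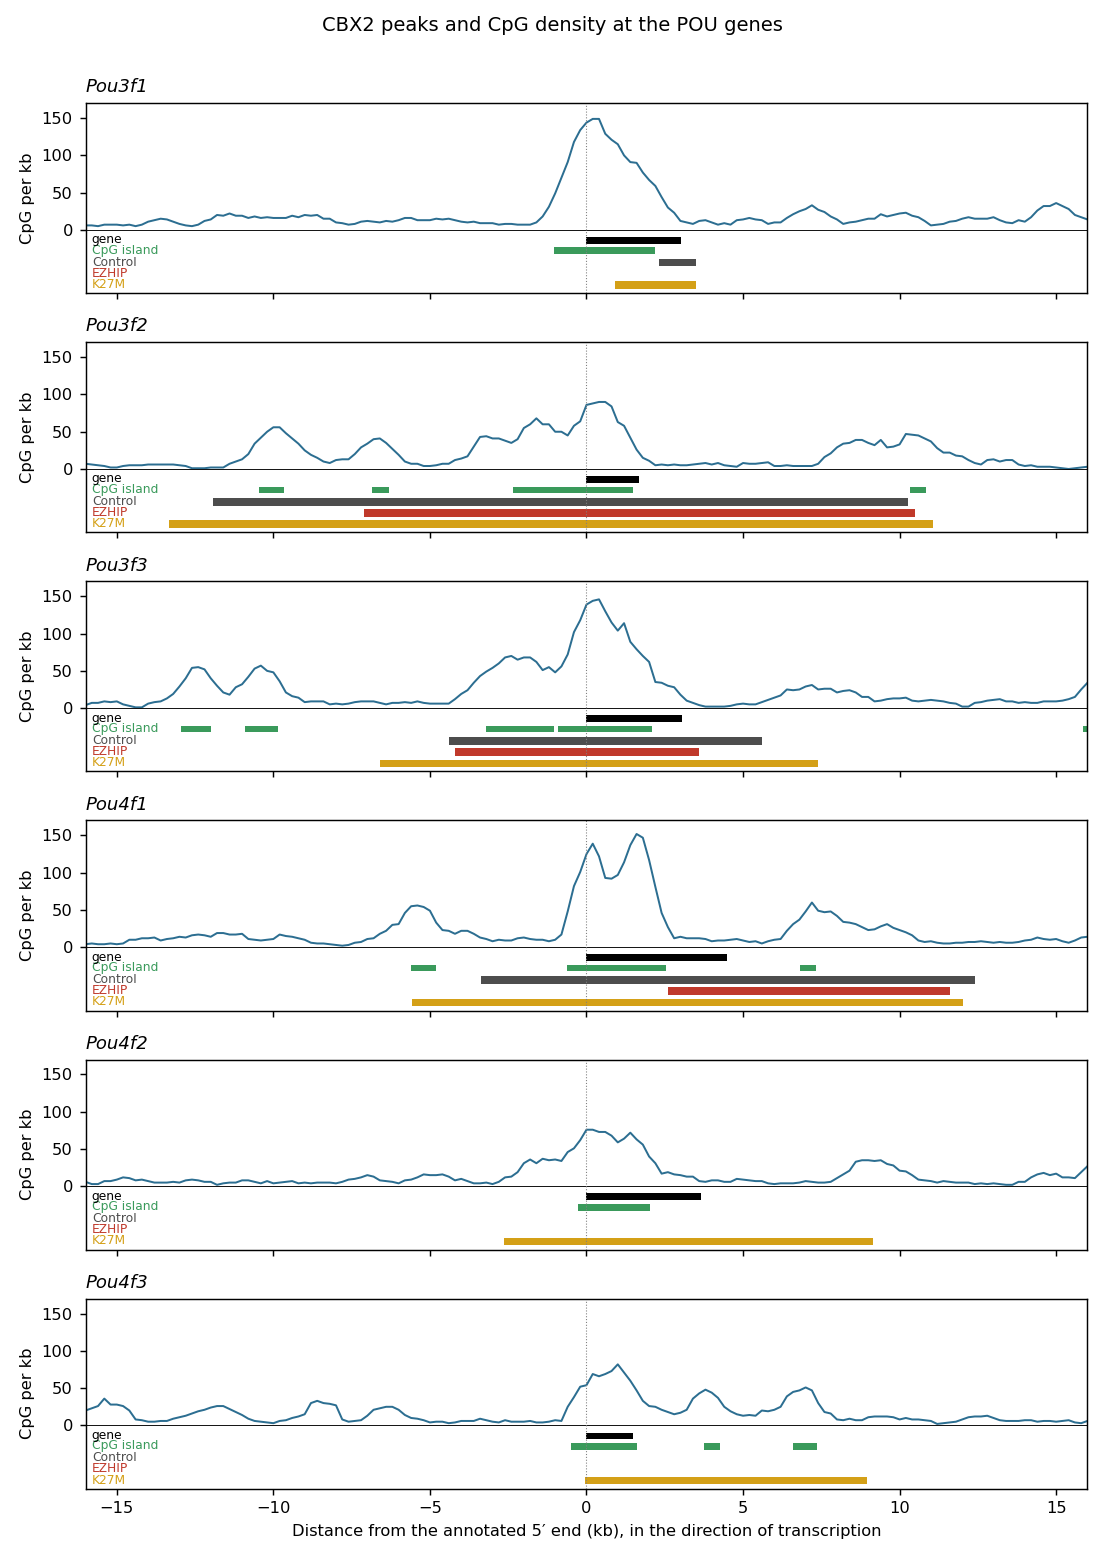
CpG density (CpGs per kb in 1000 bp windows, blue line) and CBX2 peaks of the Control, EZHIP and K27M lists (grey, red and yellow bars) by distance in kb from the annotated 5′ end of each POU gene, with the gene body in black and CpG islands in green. The Pou3f2 and Pou3f3 starts lie inside bars of all 3 lists, the red bar at Pou4f1 begins 2616 bp past the start, and Pou4f2 and Pou4f3 have a K27M bar only.

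Pou3f2 had the widest peak of the group in every list. The gene is a single exon on the minus strand of chromosome 4 (22413791 to 22415480). Its peak measured 22.2 kb in Control (22405201 to 22427400), 17.6 kb in EZHIP (22405001 to 22422600) and 24.4 kb in K27M (22404401 to 22428800). By width it ranked 35 of 289, 37 of 255 and 53 of 327 peaks in the same order. All peaks covered the gene body, its coding sequence and the 3850 bp island at the start. On the downstream side the 3 edges lay between 10279 and 11079 bp from the 5′ end, and the EZHIP and Control edges were 1 bin of 200 bp apart. The upstream edges were farther apart, at 11920 bp before the 5′ end in Control and 13320 bp in K27M, against 7120 bp in EZHIP. An island of 800 bp that begins 9661 bp upstream lay inside the Control and K27M peaks and outside the EZHIP peak.

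Pou3f3 also had its 5′ end inside a peak of every list. It is a single exon on the plus strand of chromosome 1 (42753991 to 42757052). Its peak measured 10 kb in Control (42749601 to 42759600), 7.8 kb in EZHIP (42749801 to 42757600) and 14 kb in K27M (42747401 to 42761400). The EZHIP peak lay whole within the Control peak, which lay whole within the K27M peak. The upstream edges of EZHIP and Control differed by 1 bin, and the EZHIP peak ended 2000 bp earlier downstream. The 2200 bp that EZHIP left out held 3.64 CpGs per kb and no island, whereas the 7800 bp inside all 3 peaks held 65.5 CpGs per kb. The RefSeq start of Pou3f3 (42752613) lies upstream of the GENCODE start, which coincides with the first coding base, and it too was inside all 3 peaks.

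Pou3f1 stood apart from the other class 3 members. It is a single exon on the plus strand of chromosome 4 (124334896 to 124337899), and its 5′ end was inside no peak. The Control peak was 1.2 kb wide (124337201 to 124338400), the smallest width present in that list and near the calling minimum. It began 2305 bp past the 5′ end in the 3′ UTR, held no coding base, and ended 501 bp past the 3′ end of the gene. The K27M peak had the same downstream edge and was 2.6 kb wide (124335801 to 124338400). It began 905 bp past the 5′ end and held 39.3% of the coding sequence. EZHIP had no peak, and its nearest one was 2.07 Mb away. The island at the Pou3f1 start, 3250 bp long, shared 0 bp with the Control peak and 1295 bp with the K27M peak. This island ended less than 1 bin before the Control peak began. With looser island limits (200 bp windows, 50% G+C, observed over expected 0.6), the Control peak held 7.28% of the island span and the K27M peak 41.9%. Both peaks were small for their lists, with 3.11% of Control peaks and 5.50% of K27M peaks no wider. With peaks of at least 5000 bp only, Pou3f1 had no peak in any list.

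Pou4f1 was the only class 4 member with a peak in Control or EZHIP. The gene has 3 exons on the minus strand of chromosome 14 (104862737 to 104867216). The peak measured 15.8 kb in Control (104854801 to 104870600), 9 kb in EZHIP (104855601 to 104864600) and 17.6 kb in K27M (104855201 to 104872800). The Control and K27M peaks held the 5′ end, the whole coding sequence and the 3150 bp island at the start. The EZHIP peak began 2616 bp past the 5′ end, in an intron, and held 0 of the 1263 coding bases and 0 bp of that island, which began less than 1 bin beyond the peak edge. It covered 41.6% of the gene body and continued 7136 bp past its 3′ end. CpG density was 20.3 per kb in the EZHIP peak, against 35.5 in Control and 35.9 in K27M. The 6800 bp of the Control peak outside the EZHIP peak held 55.6 per kb. A shorter noncoding transcript of Pou4f1 starts inside the EZHIP peak, within 1 bin of its edge, so counting any transcript start gave 3 members in EZHIP. Among all genes with the 5′ end inside a Control peak and any EZHIP peak within 5 kb, 21 of 181 (11.6%) had the 5′ end outside the EZHIP peak. The corresponding count for K27M was 10 of 186 (5.38%), and Pou4f1 was not among them.

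Pou4f2 and Pou4f3 had a peak in K27M alone. Pou4f2 has 2 exons on the minus strand of chromosome 8 (80956908 to 80960551), and its K27M peak was 11.8 kb wide (80951401 to 80963200). It began 2649 bp before the 5′ end and held the whole gene and its 2300 bp island. The nearest peaks of the other lists were 6.22 Mb away in Control and 2.27 Mb away in EZHIP.

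Pou4f3 has 2 exons on the plus strand of chromosome 18 (42554251 to 42555747), and its K27M peak was 9 kb wide (42554201 to 42563200). This peak began 50 bp before the 5′ end, less than 1 bin, and ran 7453 bp past the 3′ end. It held 1650 bp of the 2100 bp island at the start and the whole of islands of 500 and 750 bp downstream. Trimming each peak by 1 bin at both edges put the Pou4f3 start outside, leaving 4 members with the start inside in K27M. The nearest peaks of Control and EZHIP were 7.53 Mb away.

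Peaks found in K27M alone were also present at other genes. Of all protein-coding genes, 0.492% had a peak in K27M and in neither other list, which is 110 of the 398 genes with a K27M peak (27.6%). For the members it was 2 of 6. Among the 91 K27M peaks that overlapped no peak of the other lists, the median width was 4.8 kb. The Pou4f2 peak ranked 8 and the Pou4f3 peak 19 of these by width. Both were thus wider than the median of their kind, and Pou4f2 was also wider than the Control peak at Pou3f3.

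**Figure D2:**
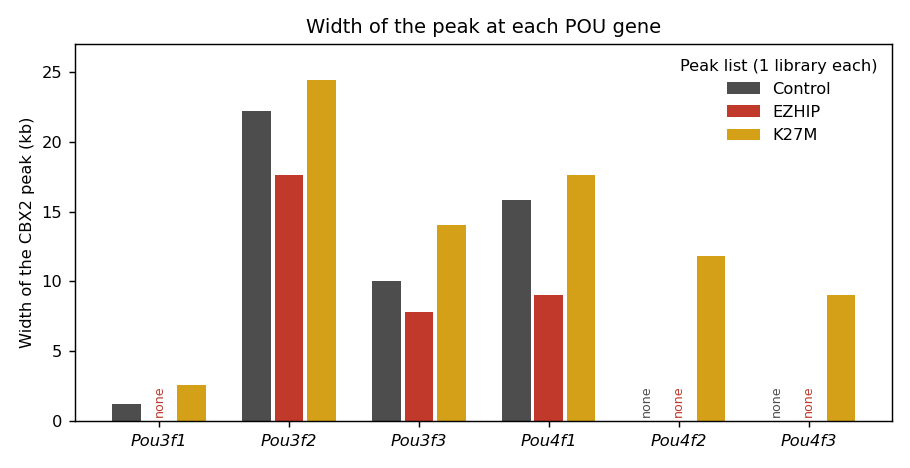
Width in kb of the CBX2 peak at each POU gene in the Control, EZHIP and K27M lists, 1 library each, with "none" where no peak was called. At the 3 genes with a peak in every list, the order is EZHIP, Control, K27M from narrowest to widest.

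At the 3 genes with a peak in every list, EZHIP was narrower than Control and K27M was wider. On the log2 scale, the width in EZHIP relative to Control was -0.33 at Pou3f2, -0.36 at Pou3f3 and -0.81 at Pou4f1. The median over the 192 sites with a peak in both lists was -0.09, with quartiles at -0.43 and 0.15. Pou3f2 and Pou3f3 were between these quartiles and Pou4f1 was below them, with 9.38% of the sites at or under its value. For K27M relative to Control it was 0.14 at Pou3f2, 0.49 at Pou3f3, 0.16 at Pou4f1 and 1.12 at Pou3f1. Over 229 sites the median was 0.32, with quartiles at 0.02 and 0.94. The K27M ratios at Pou3f2 and Pou4f1 were therefore smaller than at most sites, and that at Pou3f1 started from the smallest Control width. These comparisons share the Control list, so they are given side by side only.

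The edges of each peak were then set against those of Control. The peak caller joined stretches across gaps of up to 10000 bp, which is more than any edge shift at the members. An edge may therefore move by kilobases where a stretch is not called. In EZHIP the upstream edge fell short of the Control edge by 6000 bp at Pou4f1, 4800 bp at Pou3f2 and 200 bp at Pou3f3. The downstream edge lay within 800 bp of Control at Pou3f2 and Pou4f1 and fell short by 2000 bp at Pou3f3. Over 366 edges at sites matched one to one, the median absolute shift was 800 bp, 51.1% of edges fell short of Control and 4.92% did so by 6000 bp or more. In K27M the upstream edge lay beyond the Control edge at all 4 genes with a Control peak, by 1400 bp at Pou3f1 and Pou3f2 and 2200 bp at Pou3f3 and Pou4f1. The downstream edge was equal at Pou3f1, 400 bp short at Pou4f1, 800 bp beyond at Pou3f2 and 1800 bp beyond at Pou3f3. Over 416 such edges the median absolute shift was 1200 bp and 70.9% lay beyond the Control edge. Of the 1400 bp added at Pou3f1, 92.5% was CpG island. The island share of the added bases was 34.7% at Pou4f1, 22.7% at Pou3f2 and 0% at Pou3f3.

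**Figure D3:**
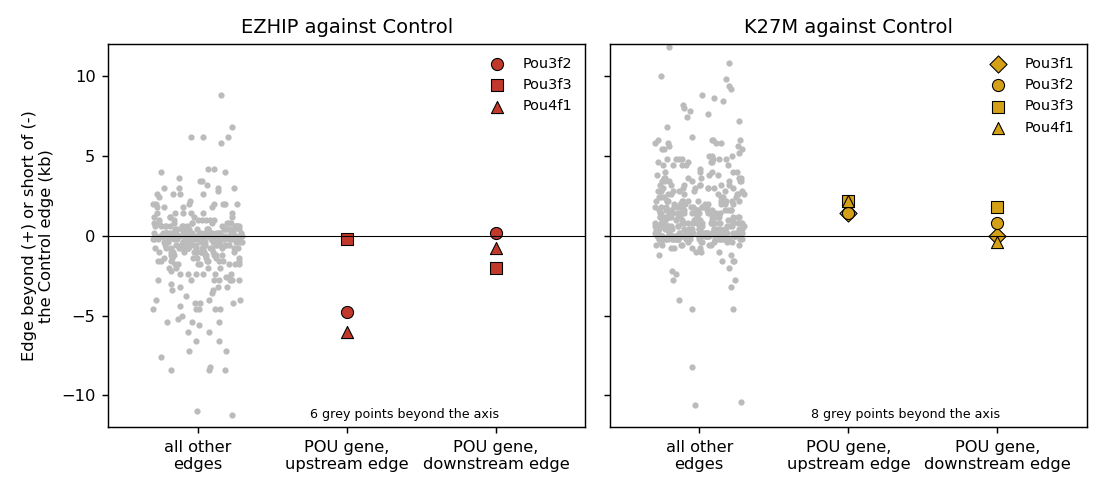
Position of each peak edge relative to the Control edge in kb, for EZHIP (left) and K27M (right), positive where the peak reaches beyond Control. Grey points are the edges of all other sites matched one to one, and coloured symbols are the POU genes, whose upstream edges in EZHIP fall 6, 4.8 and 0.2 kb short.

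The common part of the peaks differed between the genes. The bases inside all 3 peaks made up 71.3% of the bases inside any at Pou3f2, 55.7% at Pou3f3 and 50% at Pou4f1. This common part held the 5′ end at Pou3f2 and Pou3f3 and not at Pou4f1. Its CpG density was 27.9 per kb at Pou3f2, 65.5 at Pou3f3 and 20.3 at Pou4f1. EZHIP peaks lay whole inside the K27M peak at all 3 genes, and the K27M peak was 1.39 times as wide at Pou3f2, 1.79 times at Pou3f3 and 1.96 times at Pou4f1.

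Among peaks that held the GENCODE start, those at class 4 genes lay mostly downstream of it, and those at Pou3f2 and Pou3f3 lay on both sides. This measure was chosen after the peaks were seen, and it leaves out the Pou3f1 peaks and the EZHIP peak at Pou4f1, which lay wholly downstream of the start. The share of the peak from the 5′ end downstream was 78.6% at Pou4f1 in Control and 68.3% in K27M. In K27M it was 77.6% at Pou4f2 and 99.4% at Pou4f3. At Pou3f2 and Pou3f3 it was between 45.4 and 59.5% in the 3 lists. The RefSeq start of Pou3f3 lies upstream of the GENCODE start used here. From that start the Pou3f3 shares would be larger, so their contrast with class 4 depends on the annotation. Peaks that held exactly 1 protein-coding start had a median share of 66.3% in Control (110 peaks), 66.6% in EZHIP (102 peaks) and 61.3% in K27M (177 peaks). At least the share of Pou4f1 was found in 24.5% of these peaks in Control and 35.6% in K27M. In K27M, 22.6% of these peaks had at least the share of Pou4f2 and 0.565% at least that of Pou4f3, which is the Pou4f3 peak alone. That peak began 50 bp before the start, less than 1 bin, and trimming 1 bin would leave it out of this measure.

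**Figure D4:**
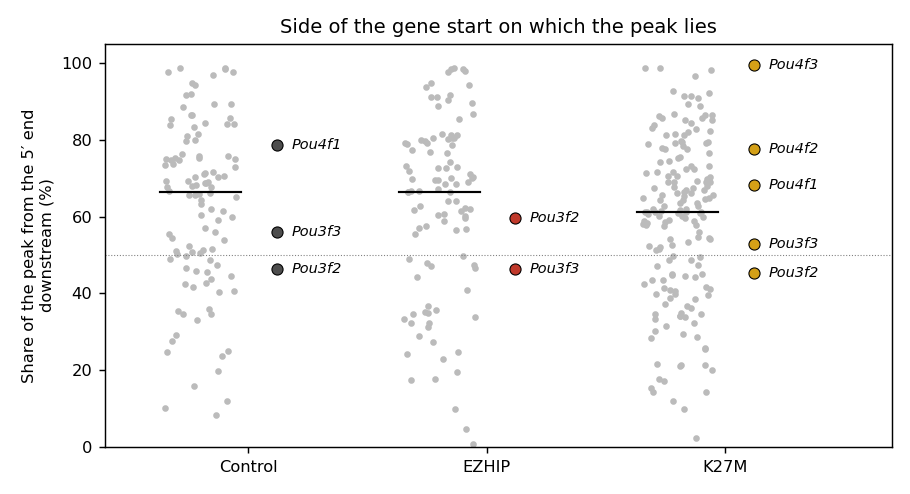
Share of each CBX2 peak that lies from the 5′ end downstream, in percent, for peaks that hold exactly 1 protein-coding gene start, in the Control, EZHIP and K27M lists. Grey points are other genes, black lines are medians over all such peaks, and labelled points are the POU genes, with Pou4f3 at 99.4% and Pou3f2 at 45.4% in K27M.

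All 6 genes carried a large CpG island at the start. An island was a merged run of 500 bp windows with at least 55% G+C and CpG at 0.65 or more of the number expected from its base composition. Within 5 kb of the 5′ end, islands spanned 5150 bp at Pou3f3, 3750 bp at Pou3f2, 3250 bp at Pou3f1, 3100 bp at Pou4f1, 2600 bp at Pou4f3 and 2300 bp at Pou4f2. The median over all protein-coding genes with an island at the start was 1250 bp, and 0.0537% of all genes had a span as large as Pou3f3. The class 3 members are single-exon genes, whereas Pou4f2 and Pou4f3 have 2 exons and Pou4f1 has 3. The 2 smallest spans belonged to the genes with a peak in K27M alone. Pou3f1, whose start was inside no peak, had a larger span than Pou4f1. The highest CpG density near the Pou3f1 start was 149 per kb, against 152 at Pou4f1. A relation between island size and peak presence was not tested. The members' peaks were wider than their islands except at Pou3f1. In the 10 peaks that held the start, CpG density was 26.4 to 65.5 per kb, against a mean of 7.21 to 16.4 per kb in flanks of equal length. In the 3 peaks that did not, density was below the mean of the flanks or nearly equal to it. In these 3 the flank toward the start overlapped the island there, and each peak was denser than its other flank. The EZHIP peak at Pou4f1 held 20.3 per kb, against 52.7 toward the start and 8.11 away from it (mean 30.4). At Pou3f1 the Control peak held 21.7, against 80.8 and 8.33 in the same order (mean 44.6). The K27M peak there held 53.8, against 95.8 and 10.8 (mean 53.3).

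A gene with a large island did not usually have a peak. Among the 1020 protein-coding genes with an island span of at least 2300 bp, the 5′ end was inside a peak for 10.6% in Control, 10% in EZHIP and 13.4% in K27M. Beside these shares stand the members' counts of 3, 2 and 5 of 6. Repeated sequence was rare under the members' peaks. Of the 32-mers sampled every 100 bp, 0 to 2.86% per gene occurred more than once in the genome.

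The other POU genes examined had no peak in any list. Of 8 looked for, Pou1f1, Pou2f1, Pou2f2, Pou2f3, Pou3f4, Pou5f1 and Pou6f1 were annotated and Pou5f2 was not matched. The nearest peak of any list lay 0.311 Mb from Pou5f1, the pluripotency factor Oct4, and between 1.35 and 25.7 Mb from the rest. Pou2f1, the broadly expressed Oct1, had an island span of 2700 bp, larger than that of Pou4f2 or Pou4f3, and no peak. Pou3f4, the remaining class 3 gene and like its relatives a single exon, had a span of 900 bp. The nearest peak to Pou3f4 was 12.7 Mb away on the X chromosome. Chromosome 7, which carries Pou2f2, had 3, 4 and 3 peaks in Control, EZHIP and K27M.

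Pax genes and LIM homeobox genes, other families of developmental transcription factors, were counted in the same way. The 5′ end was inside a peak for 3 of 9 Pax genes in Control, 4 in EZHIP and 5 in K27M. For 12 LIM homeobox genes the counts were 4, 5 and 5. A peak within 5 kb of the body was found at 5, 4 and 6 Pax genes and 7, 6 and 8 LIM genes, beside 4, 3 and 6 of the 6 POU members. A peak in K27M alone was found at 1 Pax and 1 LIM gene, against 2 of the 6 POU members. These lists are small, and the differences between them were not tested.

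**Figure D5:**
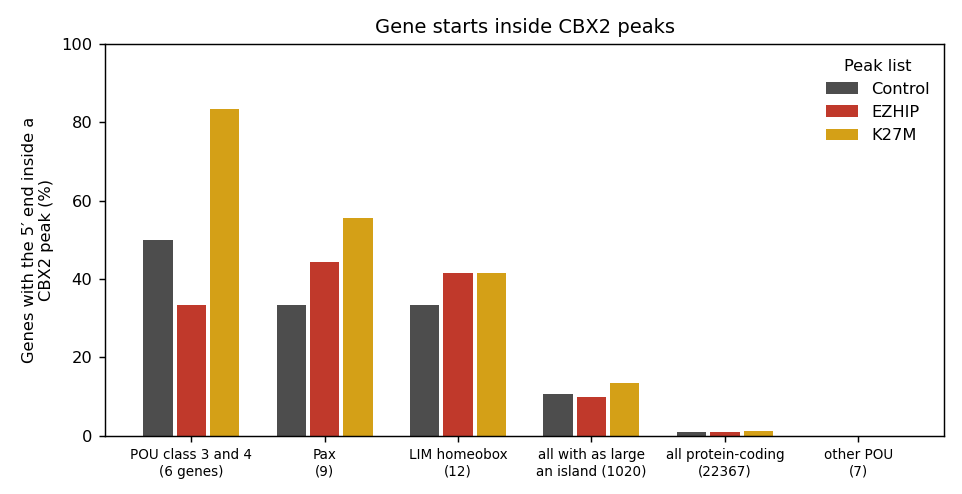
Percent of genes with the annotated 5′ end inside a CBX2 peak in the Control, EZHIP and K27M lists, for the 6 POU members, 9 Pax genes, 12 LIM homeobox genes, all genes with at least the members' smallest island span, all protein-coding genes and 7 other POU genes. The members stand at 50, 33.3 and 83.3%, and the other POU genes at 0.

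No other protein-coding gene overlapped a member's peak, so the peaks are not shared with a neighbour in the annotation. A pseudogene record overlaps Pou3f1 on the same strand under the same name. Among the 145 other genes with the start inside a peak of every list, the widths most like those of Pou3f2 were at Uncx, a homeobox gene of the axial skeleton and nervous system. They were 22, 20.6 and 23.4 kb in Control, EZHIP and K27M. For Pou3f3 the most like gene was Tlx3, a homeobox gene of sensory and spinal neurons, with 9.8, 6.8 and 14.4 kb. Likeness was the Euclidean distance of log2 widths over the 3 lists, 0.235 for Uncx and 0.204 for Tlx3.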

How the data were processed

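CBX2 was immunoprecipitated from crosslinked, micrococcal nuclease-digested chromatin of 3 MEF lines, 1 library each. According to the methods of the study and its processing notes, the authors aligned reads to mm9 with Bowtie 1.0.0 at default settings. They called broad peaks in each library with MOSAiCS-HMM, which joined stretches across gaps of up to 10000 bp. A wide peak may therefore bridge unenriched sequence, and an edge may move by kilobases where a stretch is not called. Use of an input library and scaling between libraries before calling are not given in the sources used here. The deposited values are other than counts: each line places 1 peak on a chromosome and carries neither height nor score. Positions were whole 200 bp bins counted from 0, and were rewritten 1-based. No peak ended beyond a chromosome of NCBIM37. Depth is unknown. Edges are given in bins of 200 bp, which does not measure the error of peak number, width or edge position.

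Overlaps, widths and islands were computed in Python 3.11.15 with pysam 0.24.0 and numpy 2.4.6, and intervals with scipy 1.17.1. The overlap minimum was 1 bp. Island windows of 500 bp moved in steps of 50 bp, and an island counted as at the start within 1000 bp. The overlap, width and island steps were checked on simulated data. The named genes were the 6 members, 8 other POU genes, Pax and LIM homeobox genes by counts, genes overlapping a member's peak, and the gene most like each member with its start inside a peak in all lists. An item of the gene list is not reported here. The members and lists were chosen with earlier results of these data known. Conditions were compared without a test, since no condition had a replicate.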

Additional observations from a re-analysis of the deposited data

How the results depend on the processing

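Over 35 results, 134 values were recomputed under alternatives. Of these, 114 stayed within 1.5 times (counts), the 95% interval (percentages of all genes) or 400 bp per peak (widths, ratios and island shares), and 20 moved. The rule for counts is loose for so few genes, since most changes by 1 gene stay within it. The EZHIP count of starts inside a peak, 2 or 3 with any transcript start, was scored as unchanged. The 114 also include alternatives that could not alter a value, named below. Direction was scored for the width ratios only, and 0 of these changed it. A ratio that became 0 was not scored as a change of direction. Every peak at a member overlapped the gene body, so no margin used could alter a ratio or a summed width. Only counting the part of each peak within 5 kb of the gene could alter them. The RefSeq start was added after the data were seen. The others were planned. The counts of members with a peak were the same with the gene body alone or a margin of 1, 10 or 50 kb. The margins of 10 and 50 kb, and joining peaks closer than 10 kb, could not alter any value. The next peak on the same chromosome lay 0.794 Mb from a member or farther. With peaks of at least 5000 bp, or the 255 widest peaks of each list, Pou3f1 dropped out and the counts were 3, 3 and 5 in Control, EZHIP and K27M. Requiring 50% of the gene body in peaks gave 3, 2 and 6. Counting only the part of each peak within 5 kb of the gene lowered the summed width at the members from 49.2 to 35.8 kb in Control, 34.4 to 26.4 kb in EZHIP and 79.4 to 59.0 kb in K27M, and both width ratios at Pou3f2 became 0, since its peaks filled that window in every list. With genes that have an island at the start as the background, 2.23, 2.19 and 2.59% had a peak in Control, EZHIP and K27M, and 1.40, 1.39 and 1.86% had the 5′ end inside one. The last pair of alternatives count fewer bases and fewer genes, respectively, by construction. The unknown read depth limits every comparison of peak presence and width. No paired analysis was possible because no condition had more than 1 library.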
